A study of Drosophila melanogaster with 9 samples.

Results

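Genes of the fusion-competent myoblast, the cell type that fuses with founder cells to build the body wall muscles of the Drosophila embryo, were followed across cells sorted by 3 muscle and mesoderm reporters. The members were 6 named genes, lmd, sns, hbs, sing, blow and Vrp1, and a probe set was taken where the array annotation gave it exactly 1 of these symbols. All 6 genes were found, with 6 probe sets among 16377 on the array and 6 of the 10563 genes that had a probe set of their own. Every member stood above the array median on all 9 arrays, so that none was lost to a filter on low signal.

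The apGFP cells carried an apterous-GFP transgene (ap, muscle enhancer), the S59RFP cells an RFP transgene under the muscle enhancer of slou (slouch, or S59), and the twi-actin-GFP cells an actin-GFP fusion behind the promoter of twist (twi). Each group had 3 arrays, each from an independent sort, labelling and hybridisation of total RNA from cells of stage 13 embryos, collected over 2 h and aged for 8 h at 25 °C. All cells came from homogenised whole embryos and all groups were labelled as somatic mesoderm. On resorting, 74% of apGFP, 87% of S59RFP and 95% of twi-actin-GFP cells were positive. No genotype besides the transgene was given.

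In the embryo, each muscle is seeded by a founder cell, which carries the muscle's identity factors, and grows as fusion-competent myoblasts fuse to it. Notch signalling favours the fusion-competent fate and Ras signalling the founder fate. The zinc finger factor Lmd specifies fusion-competent myoblasts. Their surface receptors, the immunoglobulin proteins Sns and Hbs, bind Kirre and Rst on the founder cell. Inside the fusion-competent myoblast, Vrp1 (the fly WIP protein, also called Solitary) and WASp drive an actin focus through the Arp2/3 complex, Blow limits the binding of WASp to Vrp1, and the membrane protein Sing is needed for fusion to be completed.

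Levels below are log2 signals, and a difference of 1 corresponds to a 2-fold change. The 6 muscle reporter arrays correlated with the 3 twi-actin-GFP arrays at r = 0.952 to 0.963 across probe sets. Within the muscle reporters 2 arrays stood apart, apGFP replicate 3 and S59RFP replicate 2. S59RFP replicate 2 correlated with the other S59RFP arrays at no more than 0.970, against 0.998 between those, and apGFP replicate 3 with the other apGFP arrays at 0.984 and 0.986, against 0.996 between those. These 2 arrays resembled each other, with r = 0.986 between them. Their deviations from their group means correlated at r = 0.668, the highest value of any pair of arrays from different groups. Results are therefore also given without both arrays. The transcripts behind the reporters did not tell apGFP from S59RFP arrays (ap differed by 0.24 ± 0.32 and slou by 0.05 ± 0.29, SE, limma adjusted p = 0.994 and 0.996), so that these names stand for the labels of the arrays. In mixed cell populations, fewer cells of a type and less RNA per cell cannot be told apart.

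All 6 genes were higher in both muscle reporter groups than in twi-actin-GFP. In apGFP against twi-actin-GFP, 6 of 6 members rose (limma, adjusted p below 0.05 over all 16377 probe sets), where 9.78% of all probe sets were called higher and 12.2% lower. The count was also 6 of 6 in S59RFP against twi-actin-GFP, where 11.1% were called higher and 12.9% lower. Without apGFP replicate 3 and S59RFP replicate 2 the counts were again 6 of 6, with 20.0% of all probe sets higher and 16.5% lower in apGFP, and 20.7% higher and 16.9% lower in S59RFP. The median difference of the members was 3.05 in apGFP and 2.93 in S59RFP, beside medians of 0.11 and 0.13 over all probe sets. Both comparisons use the same 3 twi-actin-GFP arrays, so that their values are given side by side and are not independent. For each member the lowest of the 6 muscle reporter arrays lay above the highest twi-actin-GFP array, as it did for 19.8% of all probe sets.

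**Figure D1:**
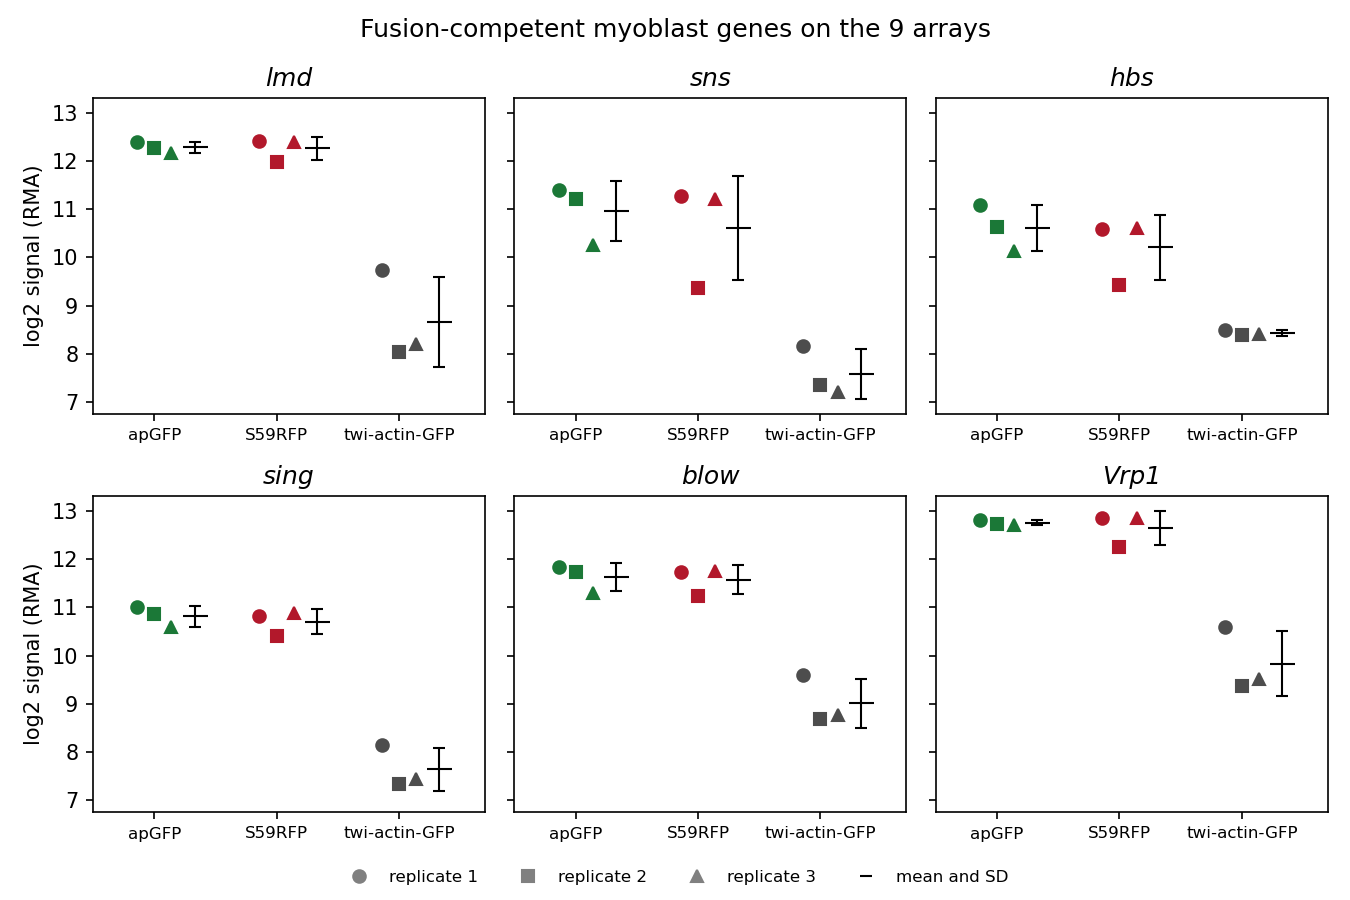
Log2 signal (RMA, y axis) of the 6 fusion-competent myoblast genes on each array, by group (x axis). Symbols are replicates, and the bar beside them is the mean with its SD (n = 3). Every muscle reporter array lies above every twi-actin-GFP array in each panel, with the narrowest gap for hbs (0.92) and the widest for lmd and sing (2.25 each).

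The transcription factor gene lmd had the largest rise of the set. Its signal was 12.40, 12.28 and 12.17 on the apGFP arrays, 12.40, 11.98 and 12.39 on the S59RFP arrays, and 9.74, 8.05 and 8.21 on the twi-actin-GFP arrays. The muscle reporter arrays lay close together, and twi-actin-GFP replicate 1 lay well above the other arrays of its group without reaching the muscle reporters. The difference was 3.62 ± 0.39 in apGFP (SE, 12.3-fold, adjusted p = 0.000237) and 3.59 ± 0.39 in S59RFP (12.1-fold, adjusted p = 0.000248). By the size of the rise lmd had rank 4 of 10563 genes in apGFP and rank 2 in S59RFP.

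The receptor gene sns came next in apGFP, and it was the most variable member in both muscle reporter groups. It read 11.40, 11.22 and 10.25 on apGFP, 11.27, 9.37 and 11.21 on S59RFP, and 8.17, 7.36 and 7.21 on twi-actin-GFP. Within their groups apGFP replicate 3 and above all S59RFP replicate 2 were low, and S59RFP replicate 2 lay 1.20 above the highest twi-actin-GFP array. The rise was 3.38 ± 0.54 in apGFP (10.4-fold, adjusted p = 0.0021) and 3.04 ± 0.54 in S59RFP (8.21-fold, adjusted p = 0.00379). Without both arrays it was 3.73 ± 0.25 and 3.66 ± 0.25. Without S59RFP replicate 2 alone the S59RFP value was 3.66 ± 0.38, which is over 1.5 times the fold change with all arrays.

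The second receptor gene, hbs, a paralogue of sns with an overlapping role in fusion, rose least. Its signal was 11.08, 10.62 and 10.13 on apGFP, 10.60, 9.43 and 10.61 on S59RFP, and 8.51, 8.40 and 8.41 on twi-actin-GFP. Here the twi-actin-GFP arrays were almost level (SD 0.06), whereas S59RFP replicate 2 was again the lowest muscle reporter array. The difference was 2.17 ± 0.34 in apGFP (4.51-fold, adjusted p = 0.00176) and 1.77 ± 0.34 in S59RFP (3.42-fold, adjusted p = 0.00538). Without both arrays it was 2.41 ± 0.13 and 2.17 ± 0.13. The 95% interval with all arrays was 1.41 to 2.94 in apGFP and 1.01 to 2.54 in S59RFP.

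The gene sing encodes a membrane protein of the MARVEL family that has been described in both founder cells and fusion-competent myoblasts. Its levels were 11.01, 10.85 and 10.59 on apGFP, 10.81, 10.41 and 10.89 on S59RFP, and 8.16, 7.33 and 7.44 on twi-actin-GFP. No array of either muscle reporter came near the twi-actin-GFP range. With 3.18 ± 0.23 in apGFP (9.04-fold, adjusted p = 3.03e-05) and 3.06 ± 0.23 in S59RFP (8.36-fold, adjusted p = 3.54e-05), sing had the smallest standard error of the members and the smallest adjusted p.

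The cytoplasmic regulators blow and Vrp1 followed the same order of groups. For blow the arrays gave 11.84, 11.74 and 11.29 in apGFP, 11.74, 11.23 and 11.75 in S59RFP, and 9.60, 8.68 and 8.77 in twi-actin-GFP. It rose by 2.60 ± 0.27 in apGFP (6.08-fold, adjusted p = 0.000188) and by 2.56 ± 0.27 in S59RFP (5.89-fold, adjusted p = 0.000209). For Vrp1 the arrays gave 12.82, 12.73 and 12.71 in apGFP, 12.86, 12.24 and 12.85 in S59RFP, and 10.60, 9.37 and 9.52 in twi-actin-GFP. Its rise was 2.92 ± 0.31 in apGFP (7.59-fold, adjusted p = 0.000213) and 2.82 ± 0.31 in S59RFP (7.08-fold, adjusted p = 0.00026). For both genes apGFP replicate 3 and S59RFP replicate 2 were the lowest arrays of their groups, and twi-actin-GFP replicate 1 was the highest of its group. The Vrp1 probe set is of a type that can match transcripts of more than 1 gene, although the annotation gave Vrp1 alone.

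Between the muscle reporters none of the 6 genes passed the test in apGFP against S59RFP. Neither did any probe set of the array (0.0% called, with 430 at an unadjusted p below 0.05, none of them a member). The differences were 0.40 for hbs (95% interval -0.37 to 1.16), 0.34 for sns (-0.88 to 1.56), 0.11 for sing (-0.42 to 0.64), 0.10 for Vrp1 (-0.60 to 0.80), 0.05 for blow (-0.57 to 0.66) and 0.02 for lmd (-0.86 to 0.91), with adjusted p from 0.994 to 0.998. All 6 point estimates were higher in apGFP and the ranges of the 2 groups overlapped for each gene. The intervals were narrowest for sing and widest for sns. The sign of some estimates changed with the arrays that stood apart, since without both of them lmd was at -0.06 and Vrp1 at -0.08, and without S59RFP replicate 2 alone sns was at -0.28, blow at -0.13, lmd at -0.11, Vrp1 at -0.10 and sing at -0.03. None of the 6 passed without both arrays either.

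**Figure D2:**
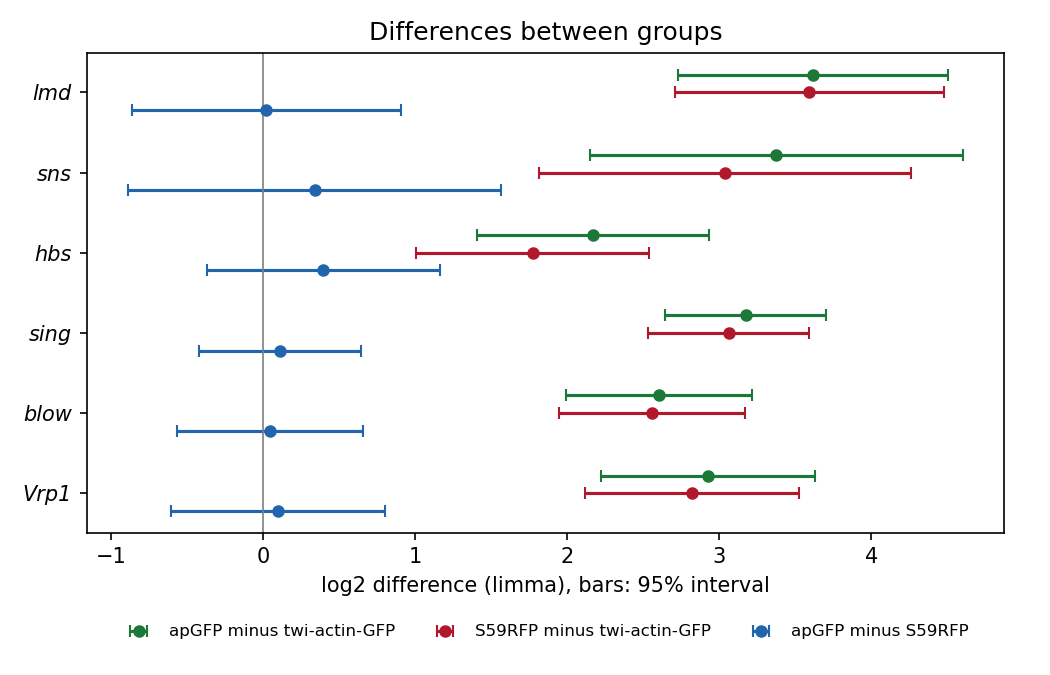
Log2 differences of the 6 genes (x axis) with 95% intervals from limma, for apGFP minus twi-actin-GFP, S59RFP minus twi-actin-GFP and apGFP minus S59RFP. The intervals against twi-actin-GFP all lie above 1, and all those between the muscle reporters span 0.

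Within groups, the members moved together. The array apGFP replicate 3 was the lowest of its group for 6 of 6 members, and S59RFP replicate 2 was the lowest of its group for 6 of 6. Over all probe sets these arrays were the lowest of their groups in 36.5% and 40.6% of cases. On the twi-actin-GFP side, replicate 1 was the highest for 6 of 6 members, against 35.6% of all probe sets. These counts describe single arrays and carry no test.

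The size of these shifts depended on the gene. On S59RFP replicate 2 the receptor genes sns and hbs lay 1.25 and 0.78 below their S59RFP mean, while lmd, sing, blow and Vrp1 lay 0.28 to 0.41 below it. On apGFP replicate 3 the same receptor genes lay 0.71 and 0.48 below the apGFP mean, against 0.04 for Vrp1, 0.11 for lmd, 0.23 for sing and 0.33 for blow. On twi-actin-GFP replicate 1 the order was another one. There lmd lay 1.07 above the group mean and Vrp1 0.77 above it, and hbs lay 0.07 above it. The receptor genes thus varied most among the muscle reporter arrays (SD 0.48 to 1.08, n = 3), whereas among the twi-actin-GFP arrays lmd varied most (SD 0.93) and hbs least (SD 0.06). As a description over the 6 muscle reporter arrays, the deviations of the 15 pairs of members from their group means correlated at r = 0.79 to 0.99, and S59RFP replicate 2 held the largest deviation of every member.

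**Figure D3:**
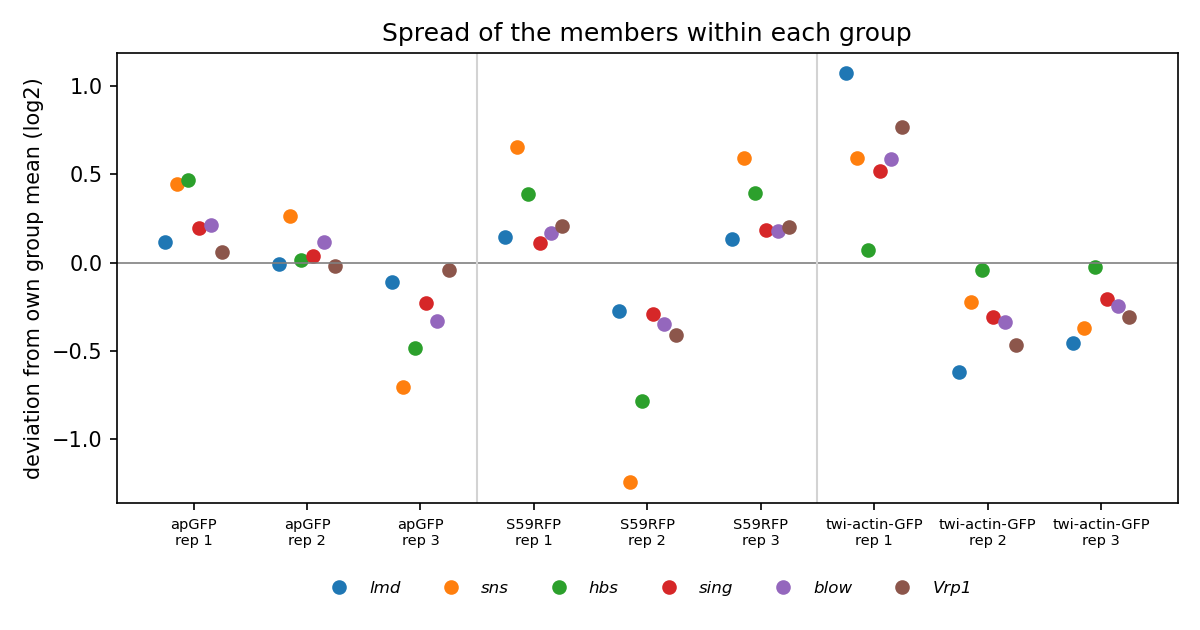
Deviation of each member from the mean of its own group (log2, y axis) on each of the 9 arrays (x axis), 1 colour per gene. All 6 genes lie below 0 on apGFP replicate 3 and S59RFP replicate 2 and above 0 on twi-actin-GFP replicate 1, with sns lowest on the first 2 arrays and lmd highest on the third.

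Other genes of myoblast fusion changed less than the members. Of 5 measured genes for founder cell receptors and their adaptors, 3 rose in each muscle reporter group and 0 fell, with a median of 0.78 in apGFP and 0.74 in S59RFP. The receptor gene rst, which acts beside kirre in founder cells and is also present in fusion-competent myoblasts, read 12.53, 12.61 and 12.43 in apGFP, 12.44, 11.90 and 12.47 in S59RFP, and 11.12, 11.03 and 11.15 in twi-actin-GFP. It rose by 1.43 ± 0.15 in apGFP and by 1.17 ± 0.15 in S59RFP (adjusted p = 0.000208 and 0.000635). The founder receptor kirre, the binding partner of Sns, did not pass, with differences of 0.35 ± 0.25 in apGFP (adjusted p = 0.351) and 0.50 ± 0.25 in S59RFP (adjusted p = 0.165). Its highest readings were on apGFP replicate 3 (10.08) and S59RFP replicate 2 (10.22), the arrays lowest in their groups for 6 of 6 members. These arrays were also the highest of their groups for 36.4% and 47.7% of all probe sets.

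The founder cell scaffold gene rols rose by 0.78 ± 0.11 in apGFP and 0.74 ± 0.11 in S59RFP, and siz, an exchange factor for Arf6, by 1.08 ± 0.20 and 1.01 ± 0.20 (adjusted p from 0.000891 to 0.00634). The adaptor gene Crk did not pass (0.43 and 0.25). In the Rac module, 0 of the 3 measured genes passed in either group, with 2 of them at an unadjusted p below 0.05 in apGFP and 0 in S59RFP. The kinase genes Pak and Pak3 differed by 0.43 and 0.27 in apGFP, and Ced-12, the ELMO partner of Mbc, by -0.19. Pak lay close to the threshold in apGFP (adjusted p = 0.0505), and at least 1 of the 3 genes passed as higher in 9 of 19 other settings in apGFP, the replicate block among them, and in 4 of 19 in S59RFP. Without S59RFP replicate 2, 1 of the 3 passed as higher in each group. The genes mbc, Rac1 and Rac2 were not analysed here.

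The actin machinery below the receptors was mixed. The 10 measured genes were those of the Arp2/3 complex, its activators and the formin gene dia, which was among the decreases in each group. Of these, 2 rose and 2 fell in apGFP, and 1 rose and 2 fell in S59RFP, with medians of 0.15 and 0.03. The complex's subunit gene Arpc3A read 11.93, 11.96 and 11.61 in apGFP, 11.85, 11.29 and 11.91 in S59RFP, and 10.35, 10.06 and 10.03 in twi-actin-GFP. It rose by 1.68 ± 0.18 and 1.54 ± 0.18 (adjusted p = 0.000262 and 0.00044), and no array of either muscle reporter overlapped the twi-actin-GFP range. Another subunit gene, Arpc2, fell by 0.50 in apGFP and by 0.55 in S59RFP (adjusted p = 0.00203 and 0.00118). A further subunit gene, Arpc1, rose by 0.66 ± 0.13 in apGFP (adjusted p = 0.00746) and differed by 0.39 ± 0.13 in S59RFP (adjusted p = 0.0683). Without S59RFP replicate 2, or without twi-actin-GFP replicate 1, 2 of the 10 rose in S59RFP.

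The subunit genes Arpc4 (-0.02 and -0.05) and Arpc5 (0.19 and 0.18) did not pass. Nor did the genes of the WAVE branch, which activates Arp2/3 on both sides of the fusion site, with SCAR at 0.21 and 0.09, Hem at -0.22 and -0.26, Abi at 0.12 and 0.01, and Cyfip at 0.17 and 0.05. The formin gene dia, whose product builds unbranched actin filaments, fell by 0.99 in apGFP and by 1.01 in S59RFP (adjusted p = 0.00393 and 0.00371). The gene WASp was not analysed here.

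**Figure D4:**
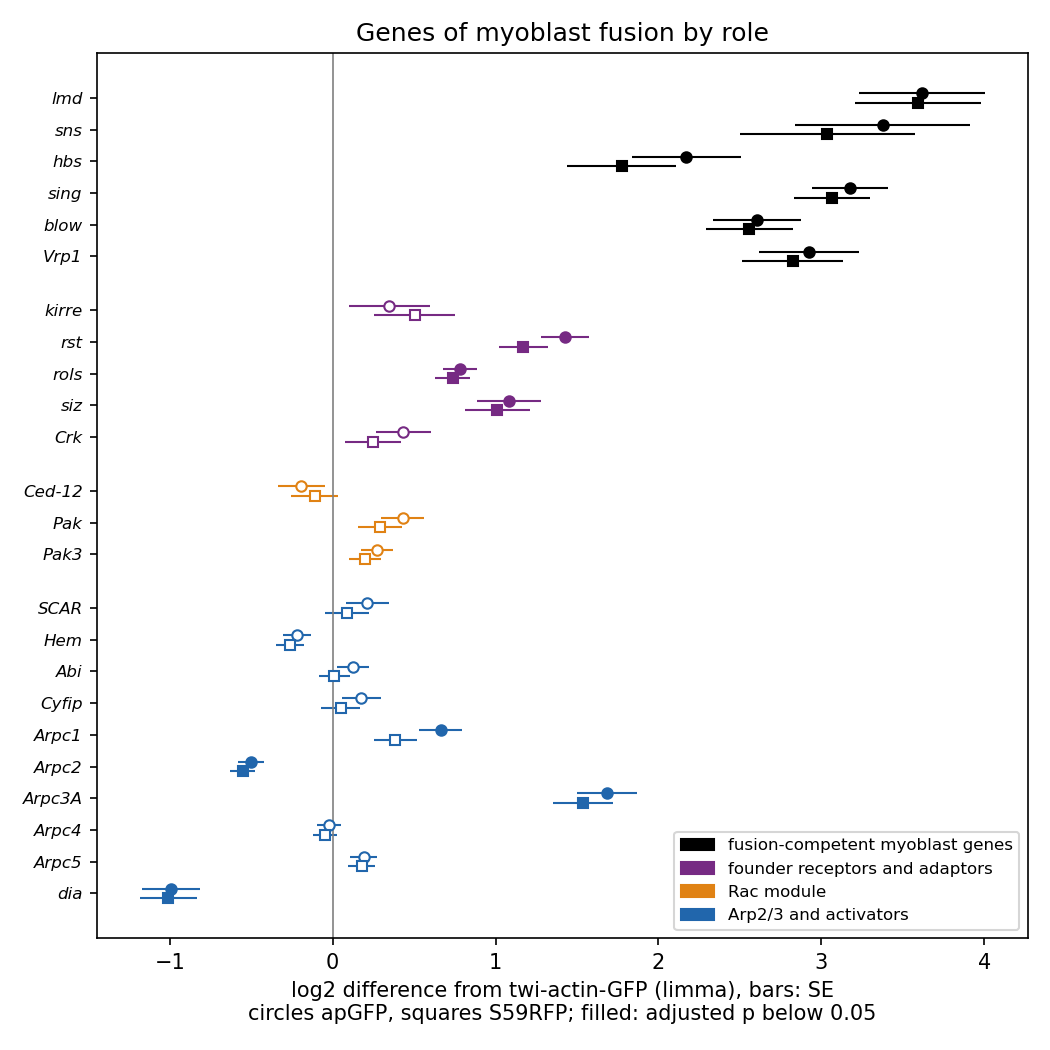
Log2 difference from twi-actin-GFP (x axis, bars: SE) of the 6 members and of 18 other fusion genes, by role. Circles are apGFP and squares S59RFP, and filled symbols passed limma at an adjusted p below 0.05. The members lie between 1.77 and 3.62, and the other genes between -1.01 and 1.68.

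Genes of the pathways that set the fusion-competent against the founder fate moved in both directions. Of 12 measured Notch pathway genes, 6 rose and 1 fell in apGFP, and 7 rose and 1 fell in S59RFP, with medians of 1.00 and 0.86. Without both arrays that stood apart, 10 rose and 2 fell in each group, and without S59RFP replicate 2 alone 2 fell in each. The list holds activators and inhibitors of the pathway, so that its counts give no direction of Notch activity. With all arrays the antagonist gene H (1.00 ± 0.52 and 0.61 ± 0.52) and the co-activator gene mam (-0.38 ± 0.22 and -0.44 ± 0.22) did not pass. Without both arrays H was among the rises and mam among the decreases. The Notch target gene E(spl)mdelta-HLH read 9.28, 9.14 and 9.37 in apGFP, 9.55, 8.48 and 9.55 in S59RFP, and 7.41, 6.67 and 7.13 in twi-actin-GFP. It rose by 2.19 ± 0.30 and 2.12 ± 0.30 (adjusted p = 0.000871 and 0.00106). Further rises were those of E(spl)malpha-BFM (1.01 and 0.98) and of neur (1.08 and 0.91), whose product activates Notch ligands. The Notch inhibitor gene numb fell by 1.18 in apGFP and by 1.13 in S59RFP (adjusted p = 0.00136 and 0.00181).

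Of 5 measured genes of the Ras pathway, 1 rose and 3 fell in each muscle reporter group. The increase was that of aop (1.18 ± 0.16 and 1.14 ± 0.16), which encodes the Ets repressor Yan, an inhibitor of Ras responses. The receptor gene Egfr fell by 1.92 in apGFP and by 1.98 in S59RFP (adjusted p = 1.5e-05 and 1.3e-05). Its ligand gene spi fell by 0.59 and 0.52, and pyr, which encodes an FGF, fell by 1.47 and 1.37.

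Founder and muscle identity factors did not follow the members as a group. Of 19 measured, 4 rose and 4 fell in apGFP, and 5 rose and 4 fell in S59RFP, with medians of 0.08 and 0.03. The rises included slou (2.57 ± 0.29 and 2.52 ± 0.29), ap (1.89 ± 0.32 and 1.65 ± 0.32) and Poxm (1.07 and 0.96), and the decreases Lim3 (-2.99 and -2.84). Without both arrays that stood apart, 7 rose and 7 fell in S59RFP. Without twi-actin-GFP replicate 2 or without replicate 3 the number that rose in S59RFP was 3. Of 5 measured mesodermal regulators, 3 rose in each group, among them twi (2.32 ± 0.21 and 2.33 ± 0.21), the gene behind the promoter of the twi-actin-GFP reporter, and 1 fell in apGFP and 0 in S59RFP. The decrease in apGFP was lost without apGFP replicate 1 or 2, S59RFP replicate 1 or 3, or any twi-actin-GFP array. Of 14 measured sarcomere genes, 3 rose and 1 fell in apGFP, and 4 rose and 0 fell in S59RFP. Without S59RFP replicate 2 these counts were 5 and 2 in apGFP and 5 fell in S59RFP, and without both arrays 5 rose and 5 fell in each group. The decrease in apGFP was lost without any one apGFP or twi-actin-GFP array.

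Some members are expressed outside the body wall muscles. Garland nephrocytes, filtering cells that use Sns and Kirre at their slit diaphragms, had 4 measured markers, all of which fell in apGFP and 3 of which fell in S59RFP (median -2.22 and -2.36). The endocytic receptor subunit gene Amnionless stood at 6.31, 6.73 and 5.41 in apGFP, 6.05, 5.24 and 6.25 in S59RFP, and 9.78, 9.77 and 9.47 in twi-actin-GFP. The median deviation of the nephrocyte list from its mean over the 9 arrays was -1.21 to -0.15 in apGFP, -1.27 to -0.28 in S59RFP, and 1.47 to 1.61 in twi-actin-GFP. The lowest values of this list were on apGFP replicate 3 and S59RFP replicate 2, the arrays lowest in their groups for 6 of 6 members. Its marker pyd went the other way on S59RFP replicate 2 (10.33, its highest muscle reporter reading). Between groups the order was reversed, since the list was highest in twi-actin-GFP, where sns was lowest. A link between this list and the members was not tested. Fusion-competent myoblasts also form in the visceral mesoderm. Of 6 measured visceral markers, 3 fell in apGFP and 2 in S59RFP, and 4 in each without both arrays that stood apart, with Hand at -4.16 and -4.44 and bin at -1.14 and -1.34.

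Markers of other tissues were also higher in twi-actin-GFP. Some lists share genes, so that their counts are not independent. Hand is in the visceral and cardiac lists, svp in the cardiac and fat body lists, and srp in the hemocyte and fat body lists. The visceral list shares bap with the mesodermal regulators, and its decrease in apGFP (-0.72, limma adjusted p = 0.0499) is counted in both. The hemocyte and glial lists share gcm, and the cardiac list shares mid and tup with the identity factors. Of 12 cardiac markers, 7 fell in each muscle reporter group and 1 rose, and of 14 hemocyte markers 8 fell and 1 rose. The hemocyte rise was that of Hml, with means of 4.70 in apGFP, 4.71 in S59RFP and 4.16 in twi-actin-GFP, near the array medians. The cardiac rise in S59RFP was lost without twi-actin-GFP replicate 2 or 3, and without both arrays that stood apart 2 cardiac markers rose in each group and 2 hemocyte markers in apGFP. All 5 gut and all 8 epidermal and tracheal markers fell in each. Fat body markers fell in 4 of 5 cases in each, and glial markers in 5 of 7 in apGFP and 4 of 7 in S59RFP. The glial count in apGFP was 2 without apGFP replicate 1 or 2 or twi-actin-GFP replicate 3, and 3 without S59RFP replicate 1 or twi-actin-GFP replicate 1 or 2. Neuronal markers were mixed, since 3 of 7 rose in each group, CadN by 1.74 and 1.55, futsch by 0.88 and 0.83 and elav by 0.65 and 0.65. The decreases were 2 in apGFP (Appl at -1.12 and fne at -0.70) and 1 in S59RFP (Appl at -0.85). With 1 array omitted these decreases ran from 1 to 2 in apGFP and from 0 to 2 in S59RFP. The fat body marker Fbp1 rose in S59RFP without S59RFP replicate 2, at a signal below the median of every array (3.58 to 4.08). The gut list deviated by -1.04 to -0.70 in apGFP, -0.94 to -0.10 in S59RFP, and 1.58 to 2.05 in twi-actin-GFP. The part of these tissues in the lower member signal of twi-actin-GFP was not tested.

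The 10 non-member genes whose profile over the 9 arrays was most like the mean of the members were CG14687, CG32638, aop, Cln7, EndoU, PIG-B, Arpc3A, Traf4, pcs and CG7607, with Pearson's r from 0.994 for CG7607 to 0.9985 for CG14687. The members themselves reached 0.963 for hbs to 0.998 for blow, although each is part of that mean. Of the 10557 other genes, 23 (0.218%) had r of at least 0.99, 288 (2.73%) of at least 0.95 and 600 (5.68%) of at least 0.9, and genes that differ between the muscle reporters and twi-actin-GFP share that step. The size of the step varied over the 10 genes. CG7607 had the largest (4.38 ± 0.36 in apGFP and 4.13 ± 0.36 in S59RFP) and aop the smallest. EndoU, which encodes an endoribonuclease, rose by 2.78 ± 0.35 in both, PIG-B, an enzyme of GPI anchor synthesis, by 1.84 and 1.71, and Traf4, an adaptor of TNF receptor signalling, by 1.63 and 1.69.

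**Figure D5:**
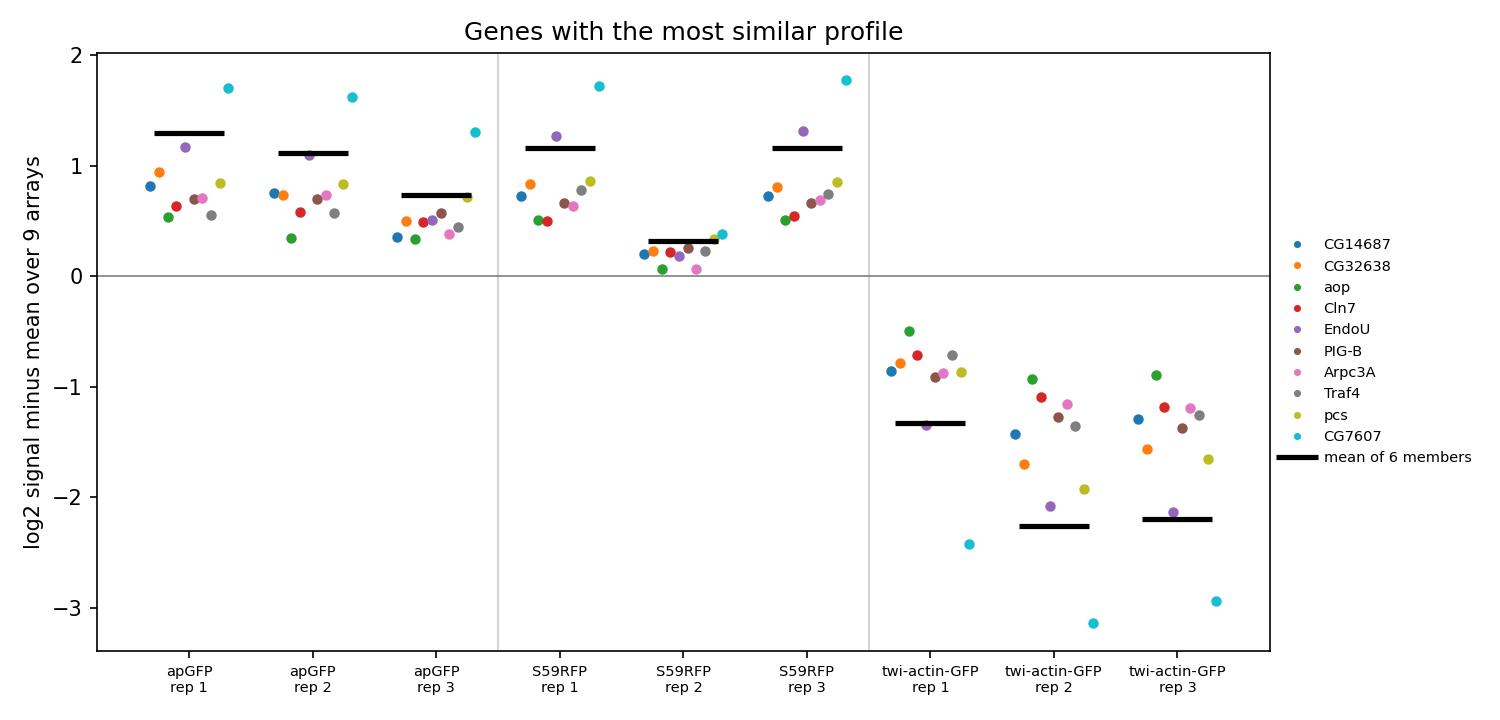
Log2 signal minus the gene's mean over the 9 arrays (y axis) on each array (x axis), for the mean of the 6 members (black bars) and the 10 genes most like it (points). The mean of the members runs from 0.32 to 1.30 on the muscle reporter arrays and from -2.26 to -1.33 on twi-actin-GFP.

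With the group means removed, the 5 genes most like the members over the 6 muscle reporter arrays were retn, CG14346, dmt, cdi and Grip128 (r from 0.9989 to 0.9996, n = 6 arrays). By the same measure the members reached 0.916 for Vrp1 to 0.996 for sns. High values were frequent here, with r of at least 0.99 in 105 of the 10557 other genes (0.995%) and of at least 0.95 in 872 (8.26%), over arrays of which S59RFP replicate 2 and apGFP replicate 3 stood apart. Of the 5 genes, only retn, which encodes an ARID-domain transcription factor, also rose against twi-actin-GFP, by 2.08 ± 0.49 in apGFP (adjusted p = 0.0157) and 1.85 ± 0.49 in S59RFP (adjusted p = 0.0261). The other 4 did not pass in either comparison, with differences between -0.12 and 0.36.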

How the data were processed

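Affymetrix Drosophila Genome 2.0 arrays were hybridised, and the values deposited by the authors are on a log2 scale, 1 per probe set and array, made with RMA in Partek per the submitters' processing notes, with versions and settings not given in the sources used here. RMA corrects background and normalizes between arrays, and low signals are compressed. It gives no detection call. The lowest value was 2.28 and the highest 14.64, array medians lay between 4.47 and 4.61, and all were used as deposited. Per the labels 6 µg of RNA was labelled per array, although a yield below that is stated for apGFP. The files name no batch or scan date.

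Of 16377 probe sets, 11899 had 1 gene in the platform annotation, 353 several and 4125 none listed. A gene was represented by its brightest probe set, and each member had only 1. One model of 3 group means over all 9 arrays was fitted in limma 3.58.1 (R 4.3.3, moderated variances, no covariates), with Benjamini-Hochberg adjustment over all probe sets and calls at adjusted p below 0.05. Unmarked ± values are standard errors of this fit. Members and gene lists were chosen with earlier results of these data known. Beside the members, 17 gene lists were used. Named from them were all fusion genes and up to 4 genes per list with the smallest adjusted p. Also named were ap, slou, twi, H, mam, Hml, Fbp1, genes shared between lists and the genes most like the members. Alternatives were another normalization, scaling, filter, variance prior, threshold or probe set rule, array weights, fewer groups, a replicate block and omission of arrays. The number of arrays limits precision.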

Additional observations from a re-analysis of the deposited data

How the results depend on the processing

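In each of 19 other settings 6 of 6 members were called in both comparisons with twi-actin-GFP and 0 of 6 between the muscle reporters. One of these, the omission of apGFP replicate 3 and S59RFP replicate 2 together, was chosen after seeing the data. Over these settings the difference in apGFP ran from 3.31 to 4.15 for lmd, 3.15 to 3.73 for sns, 1.94 to 2.41 for hbs, 3.02 to 3.44 for sing, 2.44 to 2.90 for blow and 2.69 to 3.31 for Vrp1. In S59RFP it ran from 3.28 to 4.13, 2.71 to 3.78, 1.58 to 2.17, 2.91 to 3.32, 2.39 to 2.85 and 2.59 to 3.21 for the same genes. The highest adjusted p was 0.0126 in apGFP (sns) and 0.0243 in S59RFP (hbs). The largest differences of lmd were those without twi-actin-GFP replicate 1 (4.15 ± 0.16 and 4.13 ± 0.16).

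No pairing by replicate number was seen. Deviations of same-numbered arrays of different groups correlated at -0.618 to 0.491, and those of differently numbered arrays at -0.639 to 0.668. Such wide ranges, which include the 2 arrays that stood apart, cannot exclude a shared handling of same-numbered arrays. With the replicate block 6 of 6 members were called in each comparison with twi-actin-GFP, and 1329 probe sets were higher in apGFP and 1403 in S59RFP. Among the list counts, those of the sarcomere list moved by over 1.5 times most often (25 of 114 values), and those of the founder receptor, Ras, nephrocyte, gut and epidermal lists in 0 of 114 each. Counts over the whole array moved more than those of the members. The count of members could hardly move, since it cannot exceed 6 and their differences were large. In apGFP 1601 probe sets were higher, against 3299 with array weights, 766 at the submitters' threshold (fold of at least 1.7 and unadjusted p below 0.05), 3272 without both arrays and 965 to 2934 with 1 array omitted (1054 without apGFP replicate 1, 2934 without S59RFP replicate 2, and 969 and 965 without twi-actin-GFP replicate 2 and replicate 3). In S59RFP 1826 were higher and 2120 lower, against 5830 and 3398 with array weights, 633 higher at the submitters' threshold, 3383 higher without both arrays and 901 to 2609 with 1 omitted (1128 without S59RFP replicate 1, and 960 and 901 without twi-actin-GFP replicate 2 and replicate 3). Between the muscle reporters 7 were higher and 4 lower at the submitters' threshold. After a further quantile normalization the split turned to 2062 higher and 1846 lower in apGFP and 2265 and 1876 in S59RFP. Signal over background was not available, and intervals rest on 3 arrays a group.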
